A study of Mus musculus with 12 samples.

Results

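The Hedgehog signalling genes described here are the ligand gene Shh, the receptor gene Ptch1, the signal transducer gene Smo, the coreceptor genes Gas1, Boc and Cdon and the transcription factor genes Gli1, Gli2 and Gli3. They were chosen by name, and all 9 were among the 14801 genes listed in the deposited table. Of the 9, 8 passed the filter on low values and entered the test with 13663 genes in all, and Gli1 did not. The samples were primary cells from the cerebral cortex of wild-type mouse fetuses on gestational day 17.5, with no strain given. Cells grew for 9 days, spent 24 h without B27 (a serum-free supplement whose standard formula itself holds T3), and were then kept 24 h longer with 10 nM T3 or with none. T3, or triiodothyronine, is the active thyroid hormone. A culture with T3 and one without came from the same fetus, for 6 fetuses called mouse 1 to 6 here, and the comparison was made within mice. The cultures are a mixture of neurons and glia, and a bulk measurement cannot tell fewer cells of a type from less RNA per cell.

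Hedgehog proteins are secreted and bind Patched 1, which otherwise holds Smoothened inactive. Once Smoothened is released, it acts at the primary cilium to turn the Gli proteins from repressors into activators, and Gli1 and Ptch1 are the classical genes they switch on. Ptch1 therefore serves both as receptor and as a readout of the pathway. In the developing cortex Sonic hedgehog acts on progenitors, on interneuron origins outside the cortex and on synapse formation, and in the mature cortex astrocytes are a major responding cell type.

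Promoter windows from RefSeq (build GRCm38.p6, 250 bases before to 50 after the annotated start) were available for 6 of the 9 genes: Ptch1, Smo, Gas1, Cdon, Gli2 and Gli3. The windows of the receptor and coreceptor genes that rose with T3 are shown, because these are the members beside Shh on which the comparison turns. Capitals mark a GC box, GGGCGG on either strand, and the sequences read 5′ to 3′ on the gene's own strand. The Ptch1 window lies at chr13:63565686-63565985 and the Gas1 window at chr13:60177486-60177785, both on the minus strand.
Ptch1: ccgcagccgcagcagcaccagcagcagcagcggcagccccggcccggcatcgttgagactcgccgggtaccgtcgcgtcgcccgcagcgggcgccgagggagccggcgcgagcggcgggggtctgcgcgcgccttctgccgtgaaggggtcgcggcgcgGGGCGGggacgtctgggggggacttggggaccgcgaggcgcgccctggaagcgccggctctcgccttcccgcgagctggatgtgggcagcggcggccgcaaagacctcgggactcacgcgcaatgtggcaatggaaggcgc
Gas1: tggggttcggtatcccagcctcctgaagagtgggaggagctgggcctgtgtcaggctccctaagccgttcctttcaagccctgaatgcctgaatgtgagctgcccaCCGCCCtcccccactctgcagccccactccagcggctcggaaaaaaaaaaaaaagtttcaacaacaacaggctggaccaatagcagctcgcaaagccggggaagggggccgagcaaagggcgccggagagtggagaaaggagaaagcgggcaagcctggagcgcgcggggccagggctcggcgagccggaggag
Both windows were rich in CpG, with 47 CpG in the Ptch1 window and 17 in the Gas1 window against a median of 7 over all 32851 windows. The Gli binding consensus GACCACCCA was found in none of the 6 windows on either strand, and 0.253% of all windows hold it. The thyroid hormone receptor hexamer AGGTCA was found in none of the 6 either, against 16.3% of all windows. The direct repeat of that hexamer in the same orientation with 4 bases between the copies was also in none, against 0.0152%. The GC box, a motif chosen after the values were seen, was found once in each window shown and in 35.7% of all windows. These windows are short and hold 1 annotated start per gene. The GENCODE models of Ptch1, to 63573598, of Cdon, from 35421128, and of Gli3, from 15463235, reach further upstream. The windows of these genes thus lie inside the GENCODE gene, at 35451826 to 35452125 on chromosome 9 for Cdon. For Gli3 the window lies at 15463473 to 15463772 on chromosome 13. The Gas1 window instead lies wholly upstream of its GENCODE gene, whose 5′ end is at 60177365.

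Levels are given as CPM, read counts normalized for library size and composition by the TMM method, and each ± is an SD over 6 cultures. The libraries held 5272092 to 10837895 reads, and 3 reads, taken as the limit that a count of 0 allows for counting error only, corresponded to 0.273 to 0.557 CPM. In 6 of 6 mice more reads came from the culture with T3, 1.03 to 1.67 times as many. Treatment was visible in the classical T3 targets Hr (5.49 ± 1.23 to 46.5 ± 2.92) and Klf9 (23.7 ± 4.71 to 65.4 ± 6.60). Astrocyte markers (11 of 12 listed genes present) and neuronal markers (8 of 8) were found in every library. Mouse 4 without T3 was unlike the others: its heart muscle markers summed to 1213 CPM against at most 6.88 in the other 11 libraries, and Actc1, Tnnt2 and Nppa were not listed. Its markers of mural cells and meningeal fibroblasts (442.3 against at most 168) and of cycling cells (327.7 against at most 205.9) were also the highest. The change of each tested Hedgehog member without mouse 4 is given where it is described.

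Shh RNA was scarce in cultures without T3 and abundant enough to count well in every culture with T3. Shh (ENSMUSG00000002633, chromosome 5, 28456815 to 28467256 of GRCm38, minus strand) encodes the secreted ligand. Without T3 its level was 1.62, 1.76, 1.98, 2.60, 1.62 and 1.54 CPM in mouse 1 to 6. With T3 the same mice had 9.87, 11.8, 11.5, 9.04, 13.4 and 6.92 CPM. Every T3 culture lay above every culture without T3, with a gap between 2.60 and 6.92 CPM. The underlying reads were 12 to 14 per library without T3 and 70 to 147 with T3. The means were 1.85 ± 0.397 and 10.4 ± 2.29 (n = 6), a ratio of 5.63. On the scale of the test, log2(CPM + 0.5), which understates changes of low genes, Shh rose by 2.20 (SE 0.153, 4.60-fold, adjusted p = 1.19e-08 in limma). The 95% interval was 3.69- to 5.74-fold. The log2 change was the second highest of the 13663 genes tested, after that of Hr, and only these genes rose at least 4-fold. Groups that do not overlap, with T3 higher, were seen in 1.05% of genes tested. Without mouse 4 the log2 change of Shh was 2.32, and by edgeR on the recovered reads it was 2.49.

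Transcripts on the opposite strand, 9530036O11Rik and Gm26894, cover 28.3% of the Shh exons, and the library kit does not mark strand. Gm26894 was listed and stayed low, at 0.586 to 1.48 CPM (4 to 9 reads) without T3 and 0.989 to 1.74 CPM (10 to 18 reads) with T3. It was higher with T3 in 5 of 6 mice and was below the filter of the test. 9530036O11Rik was not in the table. Of the other ligands, Dhh was at 0.128 to 2.04 CPM over all libraries and below the filter, and Ihh was not in the table.

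**Figure D1:**
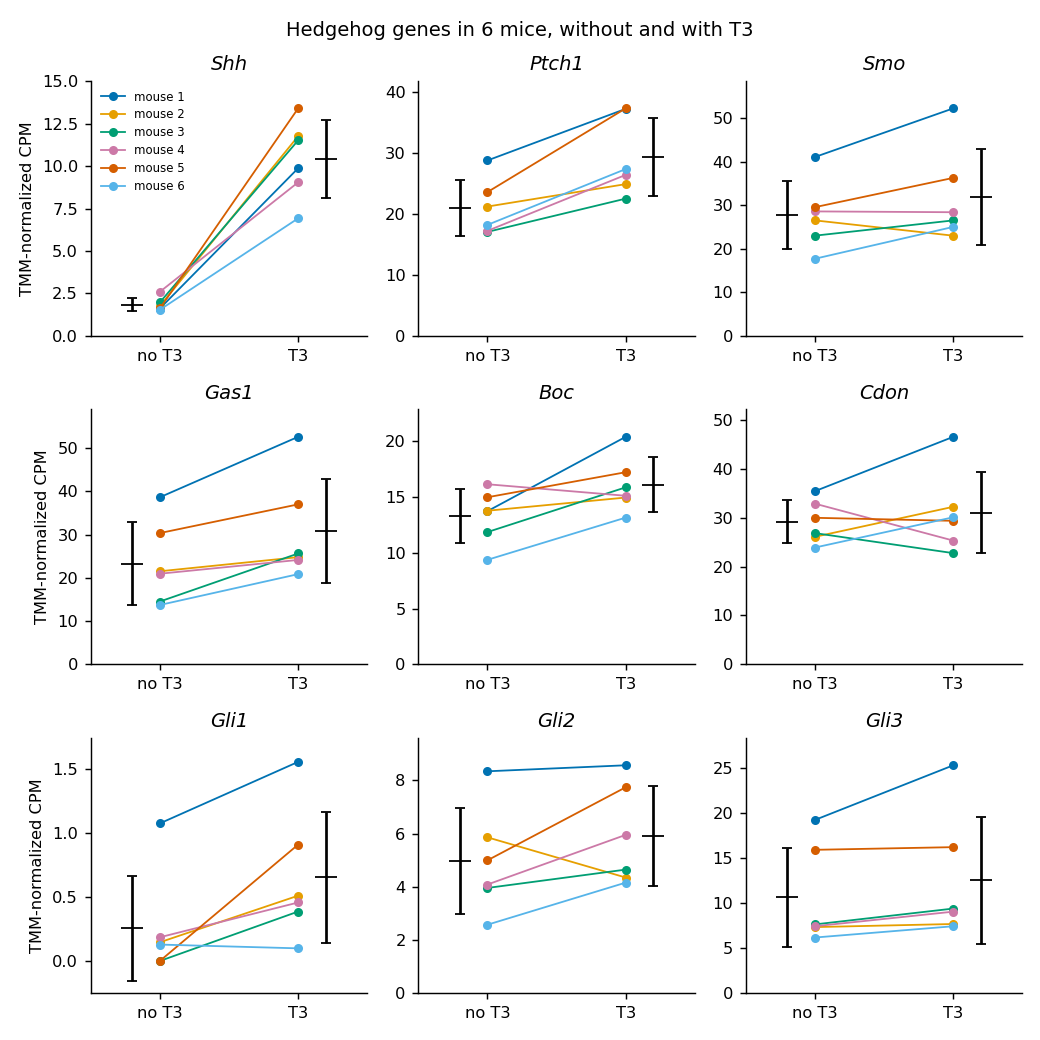
Level of each of the 9 Hedgehog genes in TMM-normalized CPM (y axis, linear, own range per gene) without and with T3; lines join the cultures of a mouse, and black bars are the mean ± SD of 6. Only for Shh are the groups separate (1.54 to 2.60 against 6.92 to 13.4 CPM), while Ptch1, Gas1 and Gli3 were higher with T3 in 6 of 6 mice with overlapping groups.

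Among the receptors, Ptch1 rose and Smo did not pass the test. Ptch1 (ENSMUSG00000021466, chromosome 13, 63508328 to 63573598, minus strand) was at 28.8, 21.2, 17.1, 17.3, 23.6 and 18.2 CPM in mouse 1 to 6 without T3. With T3 it was at 37.3, 24.9, 22.5, 26.4, 37.4 and 27.4 CPM. It was higher in 6 of 6 mice, but the groups overlapped, and 2 T3 cultures, those of mice 1 and 5, lay above the highest without T3. The log2 change was 0.47 (SE 0.078, 1.38-fold, 95% interval 1.24 to 1.55, adjusted p = 0.000638). When the mouse was left out of the model, so that the spread between mice counted as error, the call was lost (adjusted p = 0.202). Without mouse 4 it was 0.44 (adjusted p = 0.00447).

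Smo (ENSMUSG00000001761, chromosome 6, 29735503 to 29761365) ranged from 17.7 to 41.1 CPM without T3 (median 27.5) and from 23.0 to 52.2 with T3 (median 27.4). It was higher with T3 in 4 of 6 mice and lower in mouse 2 and, with a log2 change of -0.00929, in mouse 4. Its interval ran from 1.01- to 1.28-fold (adjusted p = 0.252), and its log2 change of 0.19 became 0.22 without mouse 4 (adjusted p = 0.224).

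Of the coreceptors, which bind Hedgehog at the cell surface and present it to Patched, Gas1 rose and Boc and Cdon did not pass. Gas1 (ENSMUSG00000052957, chromosome 13, 60174405 to 60177365), a protein anchored to the membrane by a lipid, was at 38.6, 21.5, 14.5, 20.97, 30.4 and 13.7 CPM in mouse 1 to 6 without T3. With T3 the values were 52.6, 24.8, 25.6, 24.2, 37.0 and 20.9 CPM. Mice 1 and 5 were the highest in both groups, and the differences between mice were larger than the change within a mouse. The log2 change was 0.42 (SE 0.085, 1.34-fold, 95% interval 1.18 to 1.51, adjusted p = 0.00405), higher in 6 of 6 mice. The call was lost without the mouse in the model (adjusted p = 0.723), and without mouse 4 the change was 0.46 (adjusted p = 0.00565). The antisense gene Gm48488 covers 19.9% of the Gas1 exons and was not in the table.

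Boc (ENSMUSG00000022687, chromosome 16, 44485049 to 44558897) and Cdon (ENSMUSG00000038119, chromosome 9, 35421128 to 35507652) encode related cell-surface proteins of the immunoglobulin superfamily. Boc had 13.3 ± 2.40 CPM without T3 and 16.1 ± 2.48 with T3 (n = 6). It was higher in 5 of 6 mice, with mouse 4 the exception (16.1 to 15.1 CPM). Its log2 change of 0.27 did not pass (interval 1.05- to 1.39-fold, adjusted p = 0.123), and without mouse 4 it was 0.35 (adjusted p = 0.0611). Cdon had 29.2 ± 4.38 and 31.0 ± 8.32 CPM (n = 6) and was higher in 3 of 6 mice. Its interval ran from 0.912- to 1.198-fold (adjusted p = 0.799), and its log2 change of 0.06 became 0.15 without mouse 4 (adjusted p = 0.467).

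The Gli genes were low. Gli1 (ENSMUSG00000025407, chromosome 10, 127329882 to 127341974), an activator and a direct target of the pathway, was covered by 8, 1, 0, 1, 0 and 1 reads in mouse 1 to 6 without T3. With T3 it was covered by 12, 4, 4, 4, 10 and 1 reads. More than 3 reads were found in 1 library without T3, that of mouse 1, and in 5 with T3. In CPM the highest value was 1.08 without T3 and 1.56 with T3, both in mouse 1. The value was higher with T3 in 5 of 6 mice. When all listed genes were kept in the fit, the log2 change of Gli1 was 0.63 (SE 0.249, 1.55-fold, 95% interval 1.08 to 2.21). The adjusted p of 0.182 did not pass, and these few reads leave the size of any change of Gli1 poorly known.

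Gli2 (ENSMUSG00000048402, chromosome 1, 118834132 to 119053619), known as the main activator, ranged from 2.57 to 8.35 CPM without T3 and from 4.15 to 8.57 with T3. It was higher in 5 of 6 mice and lower in mouse 2, from 5.86 to 4.35 CPM, and its interval ran from 0.965- to 1.48-fold (adjusted p = 0.403). Without mouse 4 the log2 change of Gli2 was 0.21 (adjusted p = 0.582). Gli3 (ENSMUSG00000021318, chromosome 13, 15463235 to 15730026), whose processed form is the main repressor, had 19.3, 7.32, 7.62, 7.42, 15.9 and 6.16 CPM in mouse 1 to 6 without T3. With T3 it had 25.3, 7.67, 9.39, 9.04, 16.2 and 7.42 CPM. Mice 1 and 5 stood well above the other mice in both groups. Gli3 was higher with T3 in 6 of 6 mice, but by 0.026 to 0.387 on the log2 scale, and did not pass (interval 1.00- to 1.34-fold, adjusted p = 0.271). Without mouse 4 the log2 change of Gli3 was 0.20 (adjusted p = 0.371).

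In all, 3 of the 8 tested members passed with higher values, Shh, Ptch1 and Gas1, and none fell. Among all genes tested 5.52% passed, 3.37% higher and 2.14% lower with T3. All 8 tested members had a log2 change above 0, as did 51.1% of genes tested. The median log2 change was 0.26 over the 8 members and 0.0031 over all genes tested. The exact sign-flip permutation test over 6 mice, two-sided, gave p = 0.03125 for Shh, Ptch1, Gas1 and Gli3, the smallest p that 6 pairs allow. With Benjamini-Hochberg adjustment over the members, the sign-flip test gave 0.0703 for each of these genes. No member passed the threshold in it. A member at the smallest p could pass this adjustment only if more members were at that p. The adjusted result therefore does not depend on how large the change of Shh is. A higher value with T3 in 6 of 6 mice was seen in 5.79% of genes tested. The share with a lower value in 6 of 6 mice was not computed.

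**Figure D2:**
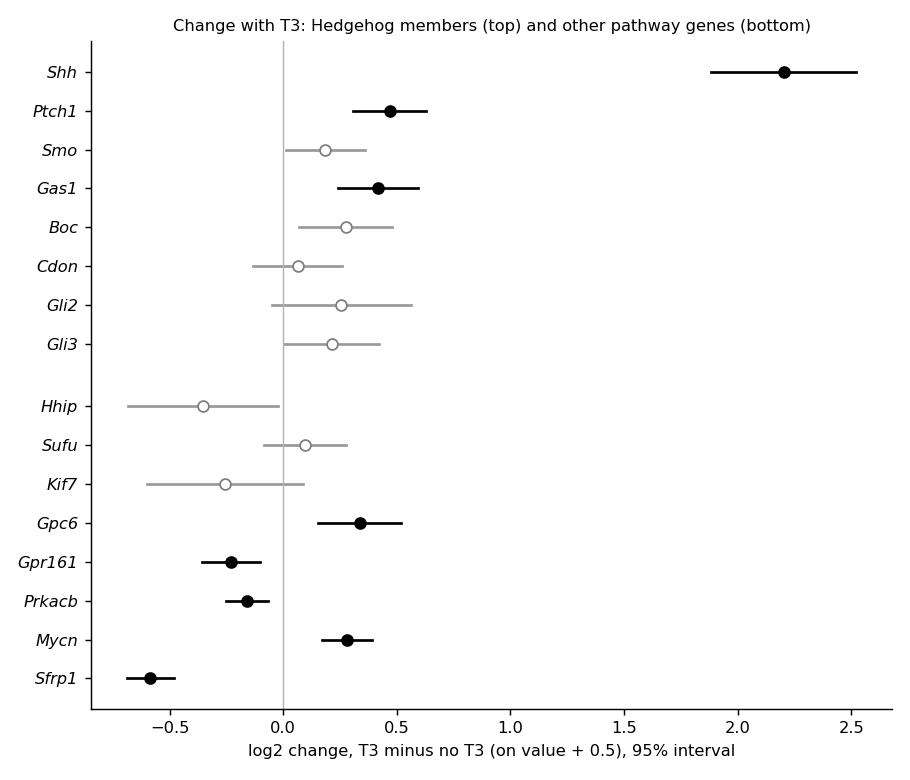
Log2 change with T3 (x axis, on CPM + 0.5) with its 95% interval for the 8 tested Hedgehog members and, below, for 8 other pathway genes; filled points passed the test. Shh at 2.20 stands alone, Ptch1 and Gas1 lie at 0.47 and 0.42, and the response gene Hhip lies below 0 without passing.

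The other genes of the pathway were taken from a list by role. Of 47 such genes, 40 were tested, and 2 rose (Gpc6 and Mycn) while 3 fell (Gpr161, Prkacb and Sfrp1). Their median log2 change was -0.063. Hhip, a decoy that binds Hedgehog ligands and is itself induced by them, had 4.13 ± 0.999 CPM without T3 and 3.07 ± 0.453 with T3 (n = 6) and was lower in 5 of 6 mice. Its log2 change of -0.35 did not pass (interval 0.622- to 0.983-fold, adjusted p = 0.245).

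Genes for making and releasing the ligand gave no call among the 5 tested besides Shh. Disp2, of the Dispatched family, was abundant at 267.9 ± 22.8 CPM without T3 and 279.2 ± 26.5 with T3 (n = 6, adjusted p = 0.661). Scube2, a secreted helper of ligand release, had 1.85 ± 0.615 and 1.10 ± 0.319 CPM (n = 6, adjusted p = 0.21). Hhat, which attaches palmitate to the ligand, was below the filter. Among 6 further surface binders 1 passed: the glypican gene Gpc6 rose from 20.4 ± 4.19 to 25.5 ± 2.05 CPM (n = 6, log2 change 0.34, adjusted p = 0.0261). It was higher in 5 of 6 mice, and the call was lost with DESeq2 or without mouse 2, 3, 5 or 6. Gpc3, a glypican that competes for the ligand, was at 50.1 CPM in the library of mouse 4 without T3 and at 4.55 to 11.3 CPM in the other 11. That library also had the heart muscle transcripts.

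Inside the cell 2 of 20 further tested genes fell, against 2.14% of all genes tested. Both are linked to protein kinase A, which keeps Gli proteins in check. The protein kinase A genes Prkaca and Prkar1a, also in the list, did not pass (adjusted p = 0.587 and 0.835 in limma). Gpr161, a ciliary receptor that raises cAMP and restrains the pathway, went from 45.4 ± 6.30 to 38.6 ± 5.01 CPM (n = 6) and was lower in 6 of 6 mice. Its log2 change was -0.23 (SE 0.0611, adjusted p = 0.0294). The call was lost with DESeq2 and without mouse 2, 3 or 6. Prkacb, a catalytic subunit of protein kinase A, went from 890.2 ± 55.3 to 798.2 ± 57.4 CPM (n = 6), with a log2 change of -0.16 (adjusted p = 0.0396), lower in 6 of 6 mice. Its call was lost without robust estimation and without mouse 1, 2, 3, 5 or 6. Sufu, which tethers Gli proteins, had 20.6 ± 1.26 and 22.2 ± 3.47 CPM (n = 6, adjusted p = 0.643). Kif7, a ciliary kinesin, had 5.05 ± 1.21 and 4.16 ± 1.05 CPM (n = 6, adjusted p = 0.473), and its log2 change went from -0.26 to -0.099 without mouse 4.

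Among 11 further tested genes that Gli factors commonly activate in neural tissue, 1 rose and 1 fell. Of the 11, 3 had a log2 change above 0, and their median was -0.12. Their summed level was lower with T3 in 6 of 6 mice, at 809.7 to 952.7 CPM without T3 and 733.7 to 848.6 with T3. Sfrp1, which is part of this sum, went from 296.0 ± 42.5 to 197.4 ± 29.2 CPM (n = 6). The sum without Sfrp1 was not computed. Mycn, a proto-oncogene of progenitors, rose from 74.1 ± 9.63 to 90.2 ± 12.4 CPM (n = 6, log2 change 0.28, adjusted p = 0.00232) and was higher in 6 of 6 mice. Sfrp1, a secreted Wnt antagonist, fell by 0.58 on the log2 scale (adjusted p = 1.72e-07), and its groups did not overlap. The share of all genes without overlap and lower with T3 was not computed. Ccnd1 had 89.3 ± 9.64 and 95.7 ± 6.94 CPM (n = 6, adjusted p = 0.338). The calls of all 5 of these pathway genes except Sfrp1 were lost when the mouse was not in the model.

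Read side by side within mice, the change of Shh had no relation past the threshold with that of any other member. Each Shh change rests on 12 to 14 reads without T3, so counting error enters its spread over mice (SD 0.396). How much of that spread is counting error was not computed, and so the order of mice by Shh change is uncertain. With 6 mice and this error, the comparison cannot show that a relation is absent. The log2 change of Shh was 2.29, 2.44, 2.28, 1.62, 2.71 and 1.86 in mouse 1 to 6, and that of Ptch1 was 0.37, 0.23, 0.39, 0.60, 0.65 and 0.57. Mouse 4, with the smallest Shh change, had the second largest Ptch1 change, and mouse 5 had the largest of both. Over the 6 mice Pearson's r between the changes of Shh and Ptch1 was -0.28 (exact permutation p = 0.558, two-sided) and Spearman's rho was -0.14 (exact permutation p = 0.803). Without mice 4 and 5, the farthest from the median Shh change, r was -0.97 over 4 mice. Single mice also moved this value: r was -0.96 without mouse 5 (adjusted p = 0.0583, exact permutation test) and -0.00235 without mouse 4. For Gas1 r was -0.046 (rho -0.26, exact permutation p = 0.919 and 0.658), and -0.45 without mice 4 and 5. Over the 7 relations computed, r ran from -0.56 (Gli3) to 0.28 (Cdon), and the lowest exact permutation p was 0.226 (0.941 with Benjamini-Hochberg adjustment over the 7).

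**Figure D3:**
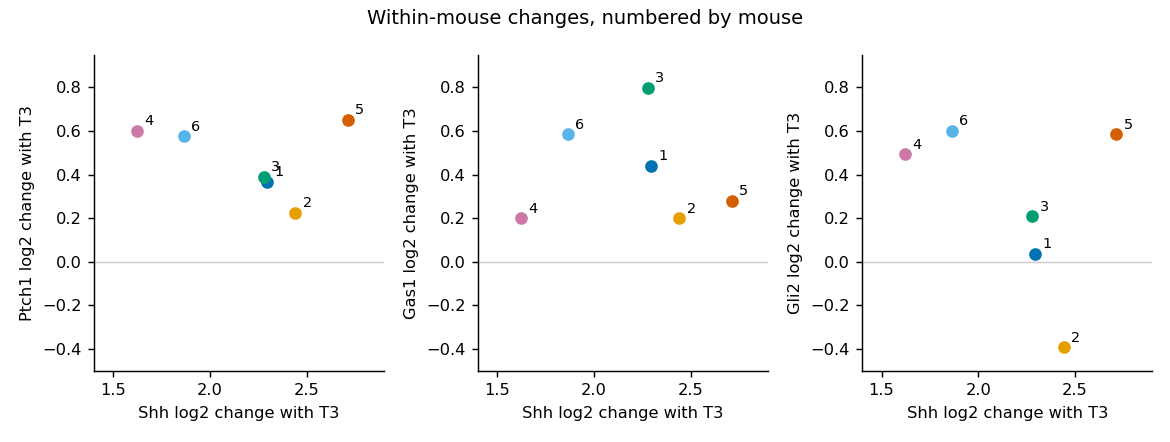
Within-mouse log2 change of Ptch1, Gas1 and Gli2 (y axes) against that of Shh (x axis); each point is a mouse, with its number. Mouse 4 has the smallest Shh change (1.62) and mouse 5 the largest (2.71), and both have Ptch1 changes of 0.60 or more.

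Several members differed more between mice than between treatments, and for some of them the highest mice were also highest in astrocyte markers. No tested member had the full order of mice of the astrocyte markers. The summed level of 11 astrocyte markers without T3 was 3045, 1646, 1546, 1442, 2457 and 901.1 CPM in mouse 1 to 6, highest in mice 1 and 5 and lowest in mouse 6. Without T3 Ptch1, Smo, Gas1 and Gli3 were likewise highest in mouse 1 and next in mouse 5, and Smo, Gas1 and Gli3 were lowest in mouse 6. From the lowest to the highest mouse Gli2 differed 3.25 times, Gli3 3.12 times, Gas1 2.81 times and Smo 2.32 times. The remaining tested members, Shh, Gli2, Boc and Cdon, were also lowest in mouse 6 but differed in the highest or next highest mouse. Ptch1 was lowest in mouse 3. Shh, which differed 1.69 times, and Boc were highest in mouse 4. For Shh these positions rest on 12 to 14 reads per library, with 14 in mouse 4 and also 14 in mouse 3. The library of mouse 4 without T3 had the fewest reads, 5272092, so its CPM of Shh was the highest at the same read count. Cdon and Gli2 were highest in mouse 1 but next highest in mice 4 and 2. Markers of neural progenitors summed to 805.7 to 1441 CPM without T3 and those of oligodendrocyte precursors to 488.4 to 715.1 CPM. Both sums were likewise highest in mouse 1, next in mouse 5 and lowest in mouse 6. These positions are thus not particular to astrocyte markers. Because mice 1 and 5 form a group apart in astrocyte level, no correlation over all mice is given.

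With T3 the astrocyte markers were higher as well. Of 10 tested markers 6 rose and none fell, with a median log2 change of 0.30, and their sum was higher in 6 of 6 mice, at 1392 to 3732 CPM against 901.1 to 3045. Those that rose were Gfap, Aqp4, Aldh1l1, Slc1a2, Slc4a4 and Kcnj10. The log2 change of the sum was 0.29, 0.22, 0.15, 0.35, 0.22 and 0.63 in mouse 1 to 6. Across these mice it had r = 0.42 with the change of Ptch1 and 0.067 with that of Gas1 (rho 0.086 and -0.14, exact permutation p from 0.453 to 0.919). Without mice 3 and 6, the farthest from the median, r was 0.29 and 0.035. Over the 8 members r ran from -0.64 (Shh) to 0.50 (Smo), with no exact permutation p below 0.158 and no adjusted p below 0.848. This relation was chosen after the values had been seen. The part of RNA from astrocytes or other cell types in the changes of Ptch1 and Gas1 was not tested.

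Markers of other cell types moved in both directions. Of 8 tested pan-neuronal markers 3 rose (Rbfox3, Nefl and Nefm) and none fell. Of 8 tested markers of oligodendrocyte precursors 3 rose (Olig1, Olig2 and Gpr17) and 1 fell (Vcan). The sum of that list was higher with T3 in 6 of 6 mice, at 605.3 to 747.8 CPM against 488.4 to 715.1. Of 5 tested markers of mature oligodendrocytes 1 rose (Ugt8a) and none fell, and the sum was again higher in 6 of 6 mice. A sum higher in every mouse was thus not particular to astrocyte markers. The pan-neuronal sum was higher with T3 in 1 of 6 mice and that of cycling cells in 0 of 6. Of 9 deep-layer neuron markers, the layers whose projection neurons are known to make Shh, none rose and Fezf2 and Etv1 fell. Their sum was 447 to 612.5 CPM without T3 and 482.3 to 587.4 with T3. Of 11 interneuron markers 2 rose and 1 fell, and of 8 progenitor markers 1 rose. Of 10 markers of cycling cells 5 fell and none rose. Of 8 tested markers of mural cells and meningeal fibroblasts 1, Dcn, fell (adjusted p = 0.00806), and their median log2 change was -0.55. The high values of mouse 4 without T3 enter both lists. Endothelial markers summed to at most 32.1 CPM and microglial ones to at most 10.2 CPM in any library.

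**Figure D4:**
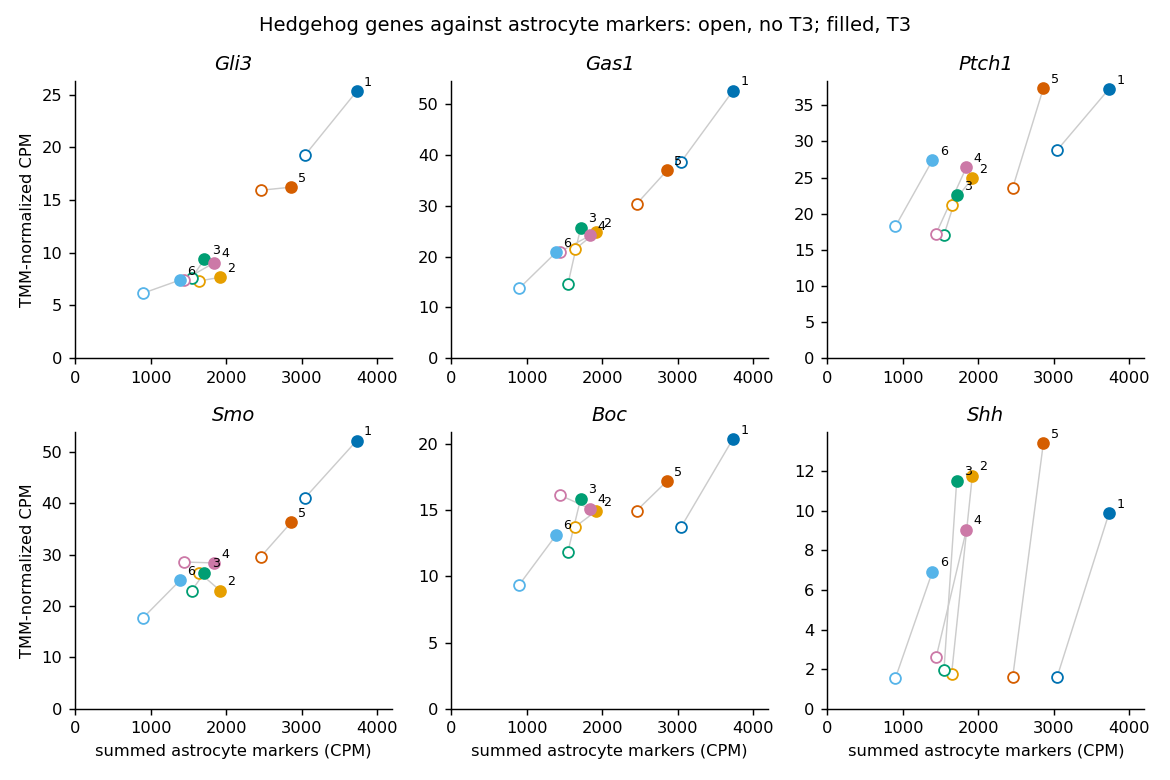
Level of 6 Hedgehog genes (y axes, TMM-normalized CPM) against the summed level of 11 astrocyte markers (x axis) in each culture; open circles are without T3, filled circles with T3, lines join the cultures of a mouse and numbers name it. Gli3, Gas1 and Smo are highest in mice 1 and 5, where the markers sum to 2457 CPM or more, while Shh differs by treatment.

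Levels of different genes were compared per kb of exon. The lengths count all exon bases, also those covered by genes on the opposite strand. These cover 28.3% of the exons of Shh, 19.9% of Gas1, 6.5% of Gli1 and 2.0% of Gli3, and none of those of the other members. Their effect on the order of levels was not tested. Without T3 the order was Gas1 at 7.87 ± 3.25 CPM per kb, Smo at 4.93 ± 1.39, Cdon at 3.78 ± 0.568, Boc at 2.99 ± 0.539, Ptch1 at 1.48 ± 0.323, Gli3 at 1.11 ± 0.576, Gli2 at 0.723 ± 0.29, Shh at 0.65 ± 0.139 and Gli1 at 0.0513 ± 0.082 (n = 6). The ranges of neighbours in this order overlapped except between Boc and Ptch1 (lowest Boc 2.11, highest Ptch1 2.03) and between Shh and Gli1 (lowest Shh 0.541, highest Gli1 0.216). With T3 Shh ranked 4 at 3.66 ± 0.805 CPM per kb, between Cdon at 4.02 ± 1.08 and Boc at 3.62 ± 0.557, and its range overlapped with both. With the longest transcript as the length the order of the 9 genes was the same, but Ptch1 reached 2.77 CPM per kb without T3 and so overlapped with Boc.

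The genes whose log2 values were most like those of Shh over the 12 libraries were, out of 12180 candidates, Hr (r = 0.98), Chst11 (0.97), Flywch2 (0.96), Igf1 (0.95) and Klf9 (0.95). All 5 rose with T3, from 1.22-fold for Chst11 to 7.99-fold for Hr. For Ptch1 they were Gpsm2 (r = 0.97), the glial potassium channel gene Kcnj10 (0.94), Daam2 (0.93), Bcar3 (0.93) and Gpam (0.93). Of these Gpsm2 did not pass the test of T3 (adjusted p = 0.237). The mean of each mouse was then removed, which leaves 6 independent values. Shh was most like Nop2, Chst11 and Hr (r from 0.984 to 0.996) and Ptch1 most like Plbd2, Mycn and Itga7 (r from 0.991 to 0.997). Nop2 did not pass the test of T3 (adjusted p = 0.0503). With mouse means removed, genes that change steadily with T3 have a high r by construction. These values are a description, since the libraries share mice and treatment.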

How the data were processed

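RNA was measured by sequencing of single reads in 12 libraries from 6 mice. The submitters' processing notes name TopHat, Bowtie, HTSeq, edgeR, CASAVA and FastQC, and the build GRCm38, with the tools' versions not given in the sources used here. Per the file headers the deposited signal is headed as counts, but the series table is named as TMM-normalized data and its values are not whole. Its columns sum to 969044 to 1044783, and the values are read as counts scaled by the authors to CPM. The single-library files matched the series table within 5.1e-11. The table lists genes at 1 CPM or more in at least 2 libraries. Symbols were found for 14648 of 14801 identifiers.

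Dividing by what 1 read is worth gave whole reads back (100% of values within 0.01 reads). Values were tested as log2(CPM + 0.5) with limma 3.58.1 in R 4.3.3, with the mouse as a block, a mean-variance trend and robust estimation. Genes were kept by filterByExpr of edgeR 4.0.16, and p-values were adjusted by the Benjamini-Hochberg method over all genes tested, with a threshold of 0.05. The pairing follows the series' design, and the libraries of a mouse deviated together (r from 0.237 to 0.638). Pairs of libraries within a group differed beyond sampling noise (chi-square per degree of freedom 2.41 to 18.1).

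Alternatives were edgeR on the recovered reads (706 genes called), DESeq2 1.42.0, limma-voom, other pseudocounts, filters and scalings, and leaving out each mouse. Named genes are all members, called genes of the pathway lists, Hhip, Sufu, Kif7, Hr and Klf9, and the genes most like Shh and Ptch1. Further genes of the pathway and marker lists that are named as examples (Disp2, Scube2, Hhat, Dhh, Gpc3, Ccnd1, Prkaca and Prkar1a) were chosen after their values were seen. A gene beyond the 9 members that this naming rule covers is not reported here. The members and lists were chosen with earlier results of these data known. Coordinates and exon lengths are from GENCODE mouse release 21 on GRCm38.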

Additional observations from a re-analysis of the deposited data

Results flagged for a closer look

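In the groups of 6 cultures, 2 values lay far from the rest of their group among the 34 groups of member and named pathway genes examined, where chance flags about 1 group in 20. Gli1 without T3 was at 1.08 CPM in mouse 1, against 0.186 CPM in the next highest culture and 0 in the lowest, and this value rests on 8 reads. Mouse 1 also had the highest astrocyte marker sum. Gpr161 with T3 was at 48.5 CPM in mouse 6, against 38.2 CPM in the next highest culture and 34.2 in the lowest.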

How the results depend on the processing

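The replicate block, the mouse as a term of the model, had the largest effect. Without it 1 of the members passed (Shh), 1 of the other pathway genes (Sfrp1) and 178 of all genes, against 3, 5 and 754 with it. Under the 17 other alternatives the same 3 members passed. With DESeq2 3 of the other pathway genes passed. Leaving out 1 mouse gave 3 members in each case, 2 to 5 other pathway genes and 458 to 860 genes in all, with 458 without mouse 3. The log2 change of Shh lay between 1.67 (a pseudocount of 2) and 2.49 (edgeR), that of Ptch1 between 0.43 and 0.52 and that of Gas1 between 0.34 and 0.46. Without 1 mouse the log2 change of Cdon ran from -0.0015 (without mouse 1) to 0.15. The correlation of the Shh change with those of other members also changed sign without 1 mouse: r ran from -0.46 to 0.32 for Smo, from -0.58 to 0.18 for Gas1, from -0.66 to 0.45 for Boc and from -0.37 to 0.54 for Cdon, and kept its sign but ran from -0.96 to -0.00235 for Ptch1, from -0.86 to -0.19 for Gli2 and from -0.80 to -0.25 for Gli3. It was 0.018 for Smo with a pseudocount of 0.1. None of the 7 relations passed under any alternative. With the longest transcript as length, Ptch1 came to 2.03 and Smo to 7.34 CPM per kb. Depth limits Gli1, Dhh and Hhat.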
